A study of Zea mays with 29 samples.

Results

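Maize leaves with an extra copy of the long arm of chromosome 1 (1L) are compared here with leaves of balanced diploids. The members are 9 RNA libraries of 29 libraries in the series: 5 labelled trisomic, with 3 copies of 1L, and 4 labelled diploid, with 2. They were chosen by their labels in the first of the study's dosage series. The study varied 1L dose and ploidy in 27 RNA libraries and 2 DNA libraries to ask how gene expression answers to an unbalanced genome. The trisomic plants have 1.5 times the diploid number of 1L copies in an otherwise diploid genome, and the other groups of the first series are tetrasomic, haploid and disomic haploid plants. Of the second series, with monosomic, diploid and trisomic plants, the 3 diploid and 3 trisomic libraries are used as independent libraries. All were poly(A) RNA from leaf. Each library is a biological replicate in the series design, and the labels used here give neither the line, the cross, the age of the plants nor which libraries share a parent.

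When a chromosome arm is present in an unbalanced dose, its own genes have altered template number, which is called a cis effect. Genes elsewhere keep their template number and can still change, since transcription factors, chromatin proteins and signalling proteins encoded on the arm alter in amount, which is called a trans effect. In plants, as in flies, aneuploidy is known to act on expression across the genome and usually to harm growth more than a change of the whole chromosome set.

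The deposited tables list 40306 gene identifiers, without names or positions, and 0 of them occur in the reference table used here. Genes therefore cannot be described by function, no marker of leaf cells could be checked, and no sequence is shown. The varied segment was taken as a run of 3187 consecutive identifiers near the start of the list. This run was found from expression in tetrasomic libraries and the same diploids. The files do not place it on 1L, so that reading its values against the 1L copy ratio rests on taking it for the varied arm. The second series, which holds none of these 9 libraries, gives a run that starts 30 identifiers later and ends at the same gene. Of the segment's identifiers, 1901 passed the filter on low counts and were tested, and 812 had no count in the 9 libraries. Of the 37119 identifiers outside it, 20534 were tested and 10303 had no count.

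The 9 libraries held 13199571 to 18923160 counted reads and 24756 to 26111 genes with a count. Outside the segment, diploid replicate 1 had a median Pearson r of 0.94 with the other diploids (log2 CPM, across genes, which are not independent), where the other diploids had medians near 0.97. CPM are counts scaled to one library total. The library nearest to diploid replicate 1 was trisomic replicate 2 (r = 0.96), not a diploid. Trisomic replicate 1 had a median r of 0.94 with its own group and 0.95 with the diploids. The other trisomics had medians of 0.948 to 0.964 with their own group, so that it stood less far apart than diploid replicate 1. Diploid replicate 1 held 46.3% of the within-group sum of squares of the 4 diploids, and trisomic replicate 1 held 29.6% of that of the 5 trisomics. The other trisomics held 10.6 to 22%. Values without these libraries stand beside the main results below.

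The segment answered the labels in every library. Its genes took 7.70, 7.48, 7.47 and 7.53% of the counted reads in diploid replicates 1 to 4. They took 11.1, 11.4, 11.1, 11.2 and 11.5% in trisomic replicates 1 to 5. The groups did not overlap, and diploid replicate 1 and trisomic replicate 1 lay close to their own group inside the segment. Against the mean of the diploids, the median log2 ratio of the segment's genes was 0.52, 0.50, 0.51, 0.53 and 0.50 in trisomic replicates 1 to 5. Each diploid against the other diploids gave 0.00, -0.020, 0.034 and 0.019. The same medians outside the segment lay between -0.024 and 0.023 in the 9 libraries.

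Relative expression of the segment is its mean log2 CPM minus that of all other tested genes. With the run from the second series it was 0.45 ± 0.01 (SD, n = 5) in the trisomic group and -0.018 ± 0.022 (SD, n = 4) in the diploid group. They differed by 0.47 (exact two-sided permutation p = 0.0159, the smallest that 5 against 4 libraries allow, or 0.0317 adjusted over 2 such tests). With the longer run it was also 0.47 (SE 0.01), and it was 0.47 without diploid replicate 1 and trisomic replicate 1, where 4 against 3 libraries allow no exact p below 0.0571. The log2 copy ratio is 0.585, of which the shift makes 80.5%. This percentage depended on the measure. The shift was 0.54 as a difference of medians over genes (92.5%), 0.55 among genes averaging 5 CPM or more (94.6%) and 0.64 as a log2 ratio of summed reads (109.2%). These percentages are for the longer run. It was found in part from these diploids, so that no p is given for them. Bulk leaf RNA cannot tell a change in the number of cells of a type from a change of RNA per cell.

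Single segment genes spread widely around this shift. The median log2 fold change over the 1901 tested genes was 0.52, a fold of 1.44, and the quartiles were 0.26 and 0.80. Outside the segment the median was -0.025 and the quartiles were -0.23 and 0.22. In the segment 86.9% of tested genes had a value above 0, compared with 46.7% outside. The value lay within 0.1 of the log2 copy ratio for 20.6% of segment genes and for 4.50% of the others. It lay within 0.1 of 0 for 6.21% of segment genes and for 25% of the others. These shares describe the fitted values and include their error. The spread was wider without diploid replicate 1 and trisomic replicate 1. The segment's quartiles were then 0.17 and 0.89, those outside were -0.30 and 0.31, and 83.2% of segment genes and 47.4% of the others were above 0.

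**Figure D1:**
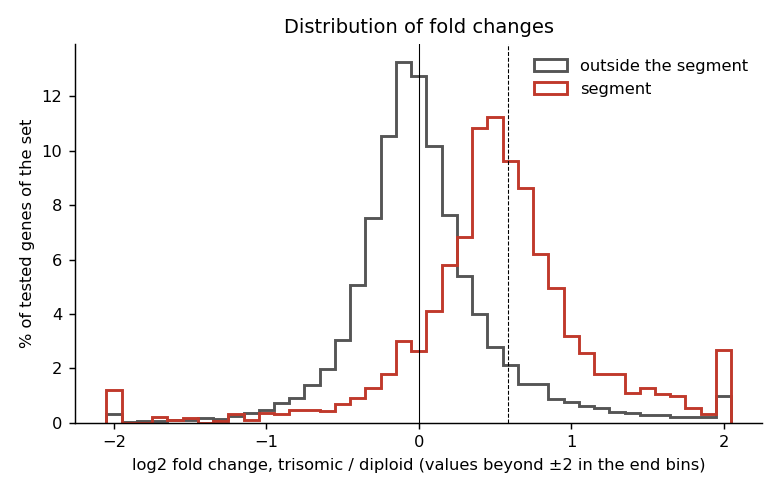
Distribution of log2 fold changes (x axis) between 5 trisomic and 4 diploid libraries, as the percentage of tested genes (y axis) in bins of 0.1, for 1901 segment genes and 20534 others. The most filled bin is centred at 0.5 in the segment and at -0.1 outside it; the dashed line marks the log2 copy ratio of 0.585.

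In edgeR's quasi-likelihood test with Benjamini-Hochberg adjustment, 340 of 22435 genes, 1.52%, had an adjusted p below 0.05 and are called changed, 1.22% higher and 0.299% lower. In the segment 233 genes rose, 12.3% of those tested, and 2 fell, 0.105%. The 233 had a median log2 fold change of 0.79 and ranged from 0.40 to 4.2. For 207 of them every trisomic library lay above every diploid one. Counted without a test, the groups did not overlap and trisomics were higher for 477 segment genes, or 25.1%, where the share over all tested genes was 3.57%. They did not overlap and trisomics were lower for 37 segment genes, or 1.95%, where the share over all tested genes was 2.11%.

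Called rises in the segment were most frequent at middle levels. Of the 519 segment genes with a mean of 20 to 100 CPM, 111 rose, and the median log2 fold change was 0.49. Of the 549 genes at 5 to 20 CPM, 83 rose, with a median of 0.56. Of the 180 genes at 100 CPM and over, 15 rose, and the median was 0.43. Below 1 CPM 3 of 261 genes rose, although the median was 0.53, and the quartiles of these genes were 1.46 apart. By share, the order of the classes was the same without diploid replicate 1 and trisomic replicate 1, with 163 rises at 20 to 100 CPM (31.4%), 144 at 5 to 20 CPM (26.2%), 36 at 100 CPM and over (20%), 55 at 1 to 5 CPM (14%) and 10 below 1 CPM (3.91%). With all libraries the median standard error of the log2 fold change was 0.18 at 20 to 100 CPM and 0.22 at both neighbouring levels.

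The segment's median change differed along the identifier order, and this unevenness was not tested. In 16 bins of 200 identifiers, with 94 to 136 tested genes each, the median log2 fold change ran from 0.25 to 0.64, and in each bin all 5 trisomic medians lay above all 4 diploid ones. The lowest bin was the second, identifiers 2882 to 3080. Its medians against the diploids were 0.13, 0.26, 0.24, 0.14 and 0.27 in trisomic replicates 1 to 5, and trisomic replicate 1 was the lowest. The bins ran from 0.26 to 0.65, with the same bin lowest, when diploid replicate 1 and trisomic replicate 1 were left out. The independent trisomics of the second series also had their lowest segment median there, at 0.36. Outside the segment 186 bins had at least 20 tested genes. Their medians ran from -0.12 to 0.14, and in 0 of them did all trisomics lie above all diploids. Bins with fewer tested genes were left out. The 7 genes just past the segment's end, identifiers 5869 to 5878, had a median of 0.22, with overlapping library medians, and 0.25 in the second series. The other small bins had medians of -0.14 over 12 genes and -0.029 over 5 genes. At the edges the medians differed within 100 identifiers. The edges were placed by expression in tetrasomics and these diploids, so that a difference there is partly built in. The 49 tested genes among the last 100 identifiers before the segment had a median of 0.066, and the 42 among its first 100 identifiers had 0.63. At the other edge the medians were 0.55 over 71 genes inside and -0.028 over 75 genes outside.

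**Figure D2:**
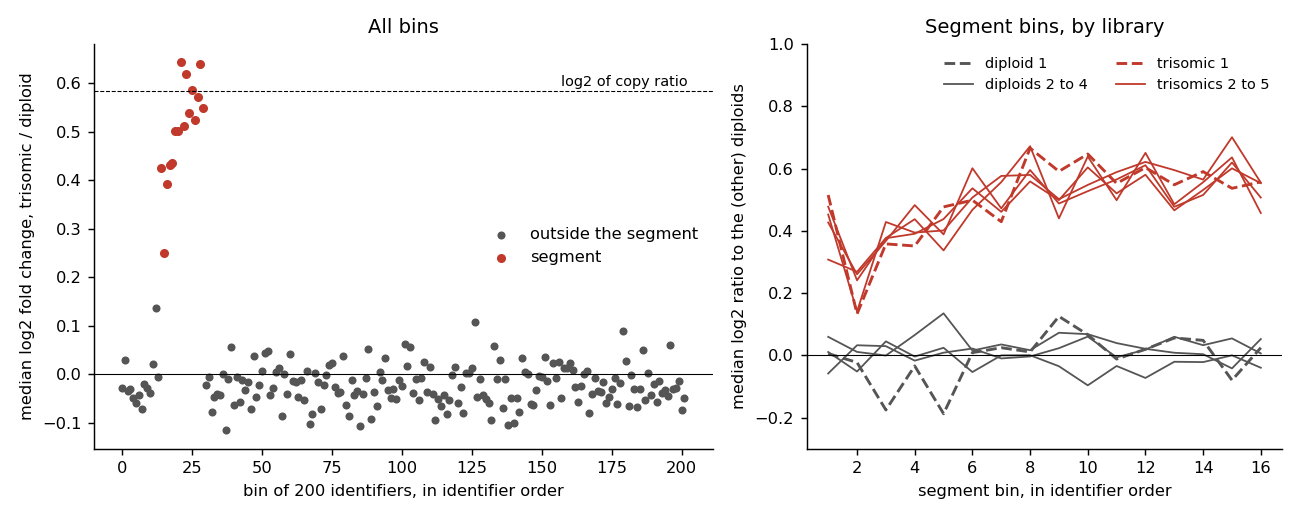
Left, median log2 fold change (y axis) of each bin of 200 identifiers against its place in identifier order (x axis), segment bins in red. Bins with fewer than 20 tested genes are left out. Segment bins run from 0.25 to 0.64 and the other 186 from -0.12 to 0.14. Right, the 16 segment bins by library, as the median log2 ratio to the diploids (to the other diploids for a diploid); dashed lines are replicate 1 of each group.

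Strong falls inside the segment were frequent near its start. Of the 333 tested genes among the first 600 identifiers, 21 had a log2 fold change below -1, or 6.31%. Among the other 1568 it was 23 genes, or 1.47%, and outside the segment it was 1.81%. These shares were 6.02, 1.85 and 2.92% without diploid replicate 1 and trisomic replicate 1. Most were scarce, with 37 of the segment's 44 below 5 CPM. In the second series 18 of the 20 from the first 600 identifiers that were tested there were also lower in trisomics (90%), with a median log2 fold change of -0.72. The same share was 83.3% for such genes in the rest of the segment, 15 of 18, and 88.3% outside it, so that it was near that of strongly falling genes elsewhere. The 2 called falls of the segment lay 105 and 133 identifiers from its start. The first had between 5.92 and 11.3 CPM in the diploids and between 0.364 and 2.28 in the trisomics (log2 fold change -2.31, SE 0.51, edgeR adjusted p = 0.0370). The other had 151 reads in the 4 diploids together and 4 in the 5 trisomics (edgeR adjusted p = 0.0445). Both calls were lost without diploid replicate 2, 3 or 4 and without trisomic replicate 2, 3 or 4, and that of the second gene also without trisomic replicate 1 or 5. The segment had 12 called falls in DESeq2 and 12 with the 9 libraries alone. In the second series these genes had log2 fold changes of -1.42 and -1.0.

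Among segment genes that met the naming rule (called, a mean of at least 5 CPM over the 9 libraries and groups that do not overlap), the largest rise was that of Zm00004b005077. It had 0.891, 1.29, 1.32 and 0.953 CPM in diploid replicates 1 to 4, and 2.22, 3.10, 20.9, 24.6 and 5.04 CPM in trisomic replicates 1 to 5. The diploids were alike, whereas trisomic replicates 3 and 4 stood far above the other trisomics. On the log2 scale it rose by 3.31 (SE 0.76, adjusted p = 0.0437 in edgeR). The estimate ranged from 2.82 to 3.59 with single libraries left out, and the call was lost without any one diploid, without trisomic replicate 3 or 4, and in a fit of the 9 libraries alone. In the second series the gene had 10.0 ± 8.67 CPM in the trisomics (SD, n = 3) and 1.06 ± 0.381 CPM in the diploids (SD, n = 3), with edgeR adjusted p = 0.128 and groups that did not overlap.

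Outside the segment few single genes were called with all libraries. In edgeR 40 rose and 65 fell, 0.195 and 0.317% of the 20534 tested. The direction of this balance turned in smaller sets of calls, at 24 higher and 16 lower with the 9 libraries alone, 17 and 16 without diploid replicate 3, 7 and 6 without diploid replicate 4 and 19 and 16 without trisomic replicate 3. The rises had a median log2 fold change of 1.42 and a median level of 7.12 CPM, where all genes tested outside had a median level of 8.96 CPM, and 31 of the 40 were above 2-fold. The falls had a median of -0.75 and a median level of 30.4 CPM, and 19 of the 65 were beyond 2-fold. The groups did not overlap for 35 of the 40 and 57 of the 65. Without any test, 323 genes outside the segment had non-overlapping groups with trisomics higher, 1.57%, and 437 with trisomics lower, 2.13%. The small number of calls does not show that the other genes were unchanged. In edgeR 998 genes outside were higher and 1330 lower at an unadjusted p below 0.05. Calls outside were 236 higher and 308 lower in DESeq2, and 428 and 528 in edgeR without diploid replicate 1 and trisomic replicate 1.

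By the naming rule, the largest rise outside was that of Zm00004b037881. Its levels were 1.66, 1.29, 3.84 and 1.84 CPM in diploid replicates 1 to 4 and 5.79, 4.52, 7.94, 13 and 12.3 CPM in trisomic replicates 1 to 5. All trisomics lay above all diploids, with diploid replicate 3 nearest to them. On the log2 scale it rose by 2.00 (SE 0.44, adjusted p = 0.0380 in edgeR). The call was lost without diploid replicate 1 (adjusted p = 0.0548), 2 or 4, without trisomic replicate 3, 4 or 5, and with the 9 libraries alone (0.0603). In the second series the log2 fold change was 0.47 (edgeR adjusted p = 0.883), with overlapping groups.

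The largest fall was that of Zm00004b034299, with 12, 7.90, 12.1 and 16.9 CPM in diploid replicates 1 to 4. Its trisomic levels were 2.22, 3.73, 3.25, 3.22 and 4.63 CPM in replicates 1 to 5. The groups lay well apart, and no single library decided the difference. Its log2 fold change of -1.84 (SE 0.28) had an adjusted p of 0.00801 in edgeR and lay between -1.98 and -1.61 with single libraries left out, and the call held without each of the 9 libraries in turn. In the second series it was -0.60 (edgeR adjusted p = 0.720), with overlapping groups.

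The next largest fall was in an abundant transcript. Zm00004b031162 had 860.4, 1224, 1914 and 1331 CPM in diploid replicates 1 to 4, and 523.9, 228.3, 423.2, 475.8 and 336.7 CPM in trisomic replicates 1 to 5. Diploid replicate 1 was the lowest diploid and trisomic replicate 1 the highest trisomic, so that both narrowed the gap. Its log2 fold change of -1.74 (SE 0.41) had an adjusted p of 0.0463 in edgeR, and it was -2.03 without those libraries (edgeR adjusted p = 0.0248). The call was lost without diploid replicate 2, 3 or 4 or trisomic replicate 2, 3, 4 or 5. Per length of gene model it stood at 213.8 RPKM in diploids and 67.6 RPKM in trisomics (means over libraries). In the second series it had 1256 ± 640.3 CPM in the trisomics (SD, n = 3) and 2417 ± 1662 CPM in the diploids (SD, n = 3). The groups overlapped there, with edgeR adjusted p = 0.633.

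**Figure D3:**
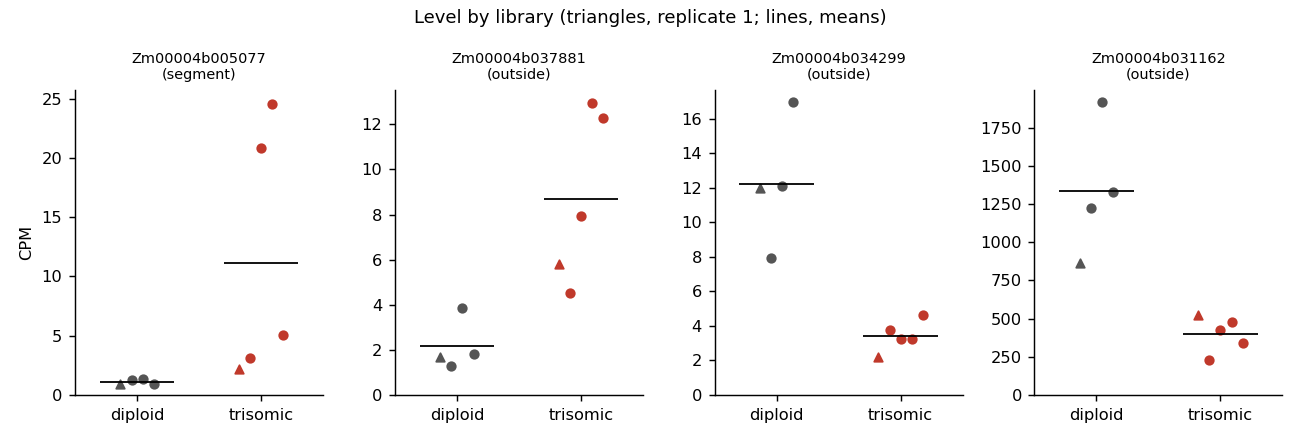
CPM (y axis, starting at 0) of the 4 named genes in each of 4 diploid and 5 trisomic libraries, with group means as lines and replicate 1 of each group as triangles. Groups do not overlap for any of them; for Zm00004b005077 the trisomics run from 2.22 to 24.6 CPM.

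Outside the segment the median fitted change differed by small amounts between classes of level. In every class the library medians of trisomics and diploids overlapped, and a shift that depends on level was not tested. With levels taken from the second series, which holds none of these libraries, the 1319 genes at 100 CPM and over had a median log2 fold change of -0.14, and 32.2% of them were above 0. The 5623 genes at 20 to 100 CPM had a median of -0.059, those at 5 to 20 CPM -0.014, those at 1 to 5 CPM 0.040, and the 1379 below 1 CPM 0.074. The median at 5 to 20 CPM was 0.0031 when the scaling was computed from genes outside the segment, and the other 4 kept their sign. Without trisomic replicate 1 it was 0.0024, and the medians at 1 to 5 CPM and below 1 CPM were 0.071 and 0.13. Without diploid replicate 1 and trisomic replicate 1 the medians from the highest class to the lowest were -0.21, -0.084, -0.017, 0.042 and 0.12. The libraries differed in this slope. For genes at 100 CPM and over, the medians against the diploids were -0.052, -0.26, -0.10, 0.074 and -0.31 in trisomic replicates 1 to 5. For each diploid against the others they were -0.18, 0.081, 0.078 and 0.046. Trisomic replicate 4 thus lay among diploids 2 to 4, and diploid replicate 1 lay among the trisomics.

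The 100 most abundant genes outside the segment, ranked in the second series, took 29.1, 35.4, 35.9 and 33.5% of reads in diploid replicates 1 to 4. In trisomic replicates 1 to 5 they took 30.8, 27.0, 31.4, 35.5 and 24.1%. The groups overlapped, at 33.4 ± 3.11% (SD, n = 4) and 29.7 ± 4.39% (SD, n = 5), and the difference of -3.70 points did not exceed the spread between libraries (exact two-sided permutation p = 0.191, also after adjustment over 2 tests). Of these genes 77 were lower and 23 higher in the fit, with a median log2 fold change of -0.26, and 1 was called, where 0.511% of all genes tested outside were called. Without diploid replicate 1 and trisomic replicate 1 the median was -0.38, with 82 lower and 11 called, where 4.66% of all genes tested outside were called. Between 2 disomic haploid and 3 haploid libraries, none of them in this comparison, 77 of the same genes were lower and the median was -0.40. The median there was -0.076 over all genes tested outside. It was -0.17 over the 1287 that averaged 100 CPM or more in the 9 libraries.

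**Figure D4:**
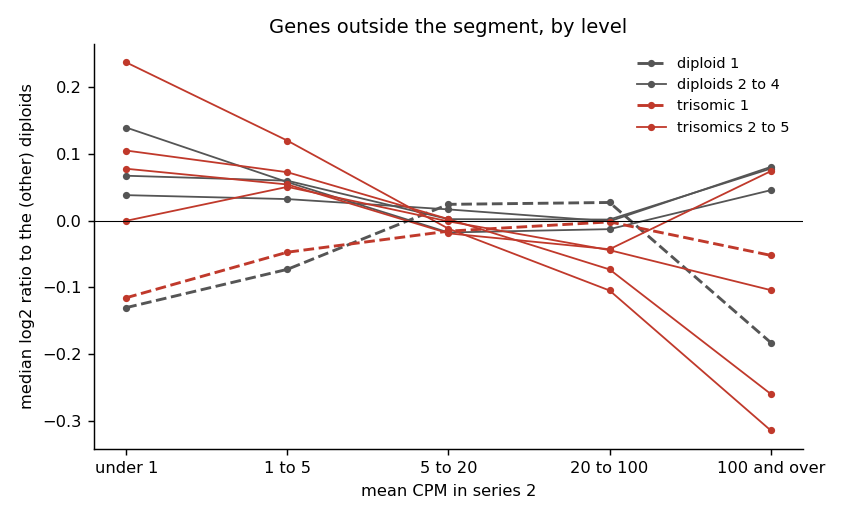
Median log2 ratio to the diploids (to the other diploids for a diploid; y axis) of genes outside the segment, by their mean CPM in the second series (x axis), 1 line per library. At 100 CPM and over trisomic replicate 5 lies lowest at -0.31 and trisomic replicate 4 at 0.074, above diploid replicate 1 at -0.18.

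The number of single genes called depended strongly on diploid replicate 1 and trisomic replicate 1, and the segment's shift did not. Without diploid replicate 1, 699 genes were called in edgeR (3.12% of those tested), and without trisomic replicate 1, 640 (2.86%). Without both it was 1371 (6.12%): 408 segment genes rose and 7 fell, while 428 other genes rose and 528 fell. Of the 340 genes called with all libraries, 314 were called in the same direction without both. For the other 19 pairs of 1 diploid and 1 trisomic library left out, the count ran from 8 to 809. It ran from 277 to 809 in the 4 pairs with diploid replicate 1 and from 8 to 163 in the 15 without it. Leaving out any other single diploid lowered the count, to 65 (0.290%), 120 (0.536%) and 49 (0.219%) without replicates 2, 3 and 4. It was 113 (0.506%), 152 (0.679%), 339 (1.51%) and 250 (1.12%) without trisomic replicates 2, 3, 4 and 5. With other methods the share called was 4.86% in DESeq2, 1.82% in limma-trend and 0.622% in edgeR without a filter on low counts. It was 0.643% in edgeR with the 9 libraries alone and 0.377% with replicates 1 to 4 of both groups alone.

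The segment's share of calls moved with these libraries. It was 69.1% with all libraries, 45.8% without diploid replicate 1, 51.6% without trisomic replicate 1 and 30.3% without both. Without both, the segment had a median log2 fold change of 0.51 and the other genes of -0.027, against 0.52 and -0.025 with all libraries. Diploid replicate 1 was the diploid nearest to the trisomics for 49 of the 105 genes called outside the segment, or 46.7%, and for 42.2% of all genes tested there. Trisomic replicate 1 was the trisomic nearest to the diploids for 41 of the 105, or 39.0%, and for 33.5% of all. The shares over called genes were near those over all genes. A total of 41 genes were called with all libraries and without each of the 9 in turn, of which 31 lay in the segment, and outside it 4 were higher and 6 lower.

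**Figure D5:**
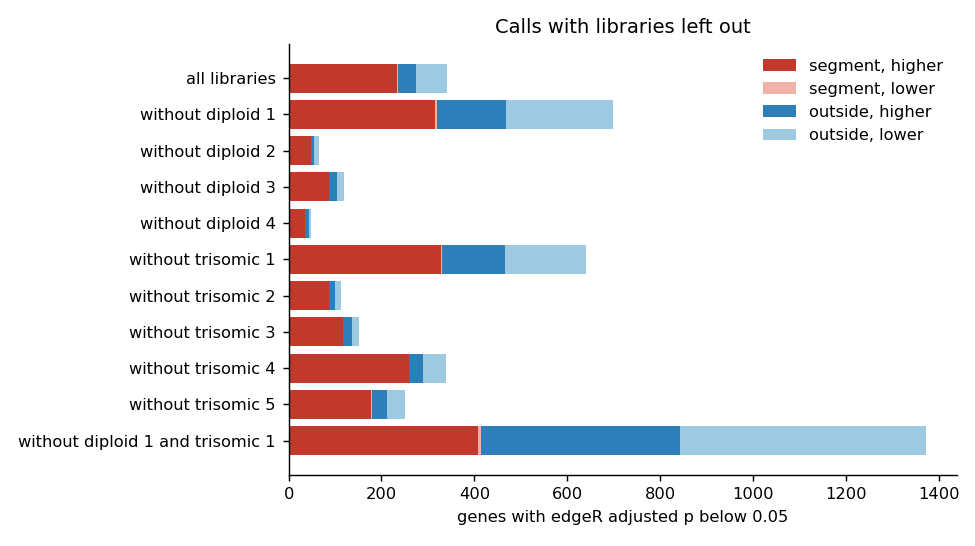
Number of genes with an edgeR adjusted p below 0.05 (x axis) with all libraries, without each of the 9 compared libraries, and without replicate 1 of both groups (y axis), divided by place and direction. The count is 340 with all libraries, 1371 without replicate 1 of both groups and 49 without diploid replicate 4.

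The independent trisomics of the second series mostly moved the called genes in the same direction. Of the 65 genes that fell outside the segment, 64 were tested there and 62 were lower, 96.9%. Over all genes outside with a value below 0 in the first series the share was 69.9%. Of the 40 that rose, 36 were tested and 30 were higher, 83.3%, where the share over all genes above 0 was 62.0%. The changes were smaller there, with medians of -0.33 for the falls and 0.49 for the rises, and 1 gene was called in the same direction. In that series 0.266% of all tested genes were called. Of the 233 segment genes that rose, 229 of 231 tested were higher, with a median of 0.63, and 6 were called, where 93% of all segment genes above 0 were higher there, with a median of 0.54. Of the genes called outside without diploid replicate 1 and trisomic replicate 1, 480 of 522 falls (92.0%) and 346 of 412 rises (84.0%) had the same direction in the second series, where the shares over all genes below and above 0 were 70.7 and 62.6%. Neighbouring and co-regulated genes are not independent, and no p was computed for these shares.

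The haploid groups of the first series gave values in the same direction for most called genes. They hold only 2 disomic haploid and 3 haploid libraries. Between them 1L goes from 1 to 2 copies, a different dose change from 2 to 3, so that sizes are not directly comparable. From haploids to disomic haploids, which share no library with trisomics and diploids, 60 of the 65 falling genes were lower (92.3%, against 65.0% of all genes outside with a value below 0) and the median log2 fold change was -0.71. Of the 40 rising genes 36 were higher (90%, against 54.4%), with a median of 1.01. For the genes called without diploid replicate 1 and trisomic replicate 1, the shares were 84.8% of 528 falls, against 66.0% of all genes outside below 0, and 72.7% of 428 rises, against 55.2% of all above 0.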

How the data were processed

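Poly(A) RNA from maize leaf was sequenced, and the authors deposited raw counts as whole numbers of reads for each gene model and library. RPKM values deposited for the first series were checked to be these counts divided by 1 length per gene and by the library total. Per the submitters' processing notes, Bowtie, TopHat, Cufflinks and Cuffdiff were used, without versions or roles, and no source here names the genome build. Table columns were matched to libraries by name, and groups were taken from titles.

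The first series was fitted as a whole in edgeR 4.0.16 under R 4.3.3, with group as the only term. The fit used TMM, filterByExpr and robust dispersion, with two-sided quasi-likelihood F-tests and Benjamini-Hochberg adjustment over 22435 genes, so that its spread is shared with the other ploidy groups. The second series was fitted likewise. Relative expression used log2 CPM with a prior count of 2, computed from the deposited counts. Alternatives used DESeq2 1.42.0, limma 3.58.1, other scalings, filters and sets of libraries. The scripts were tested on simulated data.

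The segment, the naming rule and the tests were chosen with earlier results of these data known. The level classes, the bins, the 100 abundant genes the pairs of libraries left out and the summaries without replicate 1 of both groups were added after the data had been seen. The naming rule took the largest rise and fall inside and outside the segment. No fall inside met it, so the second largest fall outside was taken. Planned gene lists and markers could not be matched to the identifiers.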

Additional observations from a re-analysis of the deposited data

Results flagged for a closer look

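Values of single libraries were compared with the rest of their group for 20 combinations of measure and group, where chance alone marks about 1 in 20. The median correlation of diploid replicate 1 with its own group outside the segment was 0.941, below 0.971 to 0.973 in the other diploids, a gap of 0.938 of the group's range. The relative expression of the segment in diploid replicate 2 was -0.058 (log2), below -0.017 to -0.010 in the other diploids, a gap of 0.858 of the range. The trisomics lay at 0.43 to 0.46, far above all diploids.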

How the results depend on the processing

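The segment's relative shift of 0.47 kept its direction in every alternative run and lay between 0.46 and 0.48 with single libraries left out. Its size moved with the measure, to 0.54 with medians over genes, 0.55 among genes of at least 5 CPM and 0.64 with summed reads, the last above the log2 copy ratio of 0.585. It was 0.47 without diploid replicate 1 and trisomic replicate 1. These values are for the longer run of identifiers, which was found in part from these diploids, so that no p is given for them. The counts of called genes were far less stable. For each setting the total is given first, then segment genes higher, and then genes higher and lower outside, which were 340, 233, 40 and 65 in the reported fit. They were 1090, 534, 236 and 308 with DESeq2. Without a filter on low counts they were 189, 128, 23 and 37. With the 9 libraries alone they were 131, 79, 24 and 16, and with replicates 1 to 4 of both groups 76, 41, 15 and 11. Without diploid replicate 1 and trisomic replicate 1 they were 1371, 408, 428 and 528. The 2 called falls in the segment became 12 with DESeq2, 12 with the 9 libraries alone, 7 without replicate 1 of both groups and 0 with genes of at least 5 CPM alone. In limma-trend 63 genes were higher outside. With 1 library left out, or 1 of each group in the other 19 pairs, they ran from 8 to 809, 6 to 390, 0 to 163 and 1 to 253. The share of calls outside the segment with the same direction in the second series was 92% and ran from 84.6 to 100% with libraries left out, of few genes at the upper end. The median outside the segment, -0.025, ran from -0.038 to 0.017 in the same fits.

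Equal replicate numbers did not pair the libraries. The deviations of diploids and trisomics of one number correlated with r between -0.20 and 0.026 across genes, whereas diploid replicate 1 and trisomic replicate 2 gave 0.47. With the replicate number as a block over 4 pairs, edgeR called 0 genes (0 in the segment, 0 higher and 0 lower outside), with 2044 at an unadjusted p below 0.05. The segment's mean shift over these pairs, also for the longer run, was 0.475, with single pairs from 0.45 to 0.51. No p is given for this shift, since the longer run was found in part from these diploids. The 4 pairs would allow no exact sign-flip p below 0.125. The reads carry no molecular identifiers, so that counts of scarce genes are less precise than their number alone would give.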

Other observations

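A search for genes present in 1 group alone asked for 10 or more reads in each library of one group and no more than 3 in the other group together, and found 0 such genes for the trisomics. For the diploids it found 5 genes, each with 12 to 56 reads in every diploid library and 0 reads in the 5 trisomics. Of these 4 lay in the segment, 309, 311, 718 and 845 identifiers from its start. The segment holds 3187 of the 40306 identifiers and 1901 of the 22435 tested genes. Whether such genes lie there more often than elsewhere was not tested. The fit called 0 of the 5, with edgeR adjusted p from 0.114 to 0.207. All had reads in some tetrasomic, haploid and disomic haploid libraries, and in trisomics of the second series.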
